A study of Saccharomyces cerevisiae with 6 samples.

Results

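The hexose transporter genes HXT1 to HXT7 and HXT10 and the glucose sensor genes SNF3 and RGT2 of baker's yeast were followed in 6 Affymetrix arrays. They were picked by name, as a family, and not by their values. Of the 10 genes listed, 9 had a probe set under their own name, among 5449 yeast genes tested. HXT6 had none. The probe set annotated as HXT7 carries the suffix _s_at, which Affymetrix uses for probe sets that match more than 1 transcript. HXT6 and HXT7 are known to be nearly identical copies, so the value printed for HXT7 may hold both and cannot be divided between them. The other 8 members have probe sets without that suffix.

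All 6 RNAs came from the BY4741 strain background, a haploid laboratory strain of mating type a that lacks working HIS3, LEU2, MET17 and URA3 genes, growing exponentially in the rich medium YPD. Of these, 3 arrays are labelled wild type and 3 are labelled as a deletion of YPR045C (THP3), a gene linked to transcription elongation and mRNA processing. The sources used here give no treatment or time course, and nothing in them tells separate cultures from repeat RNA of one culture. The p-values therefore measure the spread between arrays, part of which may be technical.

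Glucose enters yeast cells by facilitated diffusion through the Hxt proteins, which differ in their affinity for the sugar. Snf3 and Rgt2 resemble the transporters but act as sensors in the plasma membrane. When they bind glucose, the corepressors Mth1 and Std1 are marked for destruction by the Grr1 ubiquitin ligase, and the repressor Rgt1 then leaves HXT promoters. A second route, through the Snf1 kinase and the repressors Mig1 and Mig2, shuts off the high-affinity transporter genes when glucose is plentiful. YPD is rich in glucose, but the glucose left in these cultures and the activity of either route were not measured here.

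Values are given as log2(quantile-normalised intensity + 16), and differences are those of the deletion-labelled arrays minus the wild-type-labelled arrays on that scale. They are compared between arrays for 1 probe set at a time, since probe sets of different genes differ in brightness for reasons other than mRNA amount. A gene is said to have risen or fallen where limma gave a Benjamini-Hochberg adjusted p under 0.05 over all 5449 genes. A level of 6.48 was taken as the background limit, the 95th percentile of the mean levels of probe sets for fission yeast genes on the same arrays.

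Every direction below rests on the labels, because the targeted gene did not bear them out. THP3 stood at 9.51, 9.43 and 8.94 in the wild-type-labelled arrays and at 9.93, 9.82 and 9.10 in the deletion-labelled arrays, a difference of 0.33 ± 0.25 (SE, adjusted p = 0.39). Which part of THP3 its probes cover was not known here. The a-specific genes STE2, STE6, MFA1, MFA2 and BAR1 were far above the limit in all 6 arrays. Of the genes without a working copy in BY4741, URA3 and MET17 were below the limit in both groups, while LEU2 (8.79 and 8.52) and HIS3 (11.55 and 11.60) gave a signal in both. Which parts of these genes the strain keeps and the probes cover was not known here. The alpha-specific genes were near the limit, with group means between 6.54 and 7.52. Among these mating-type genes, MFA1 (0.50 ± 0.05, adjusted p = 6.5e-04) and STE3 (0.45 ± 0.13, adjusted p = 0.048) were higher in the deletion-labelled arrays. The others were not called. Genes of chromosome X were lower in the deletion-labelled arrays, with a median difference of -0.79 over 316 genes against 0.04 over all others. None of the 10 listed members lies on that chromosome.

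Of the 9 measured members, HXT4 rose in the deletion-labelled arrays and the other 8 did not pass the test. That is 1 gene higher and 0 lower, where 11.6% of all genes were higher, 10.2% were lower and 21.7% changed in either direction. Of the 554 genes called lower, 295 lie on chromosome X, which holds none of the members. Without adjustment, 2 members were higher (HXT4 and HXT5) and 1 was lower (HXT7) at a p under 0.05. The median difference over the 9 members was 0.02, beside 0.03 over all genes. The groups did not overlap for 4 members (HXT3, HXT4, HXT5 and HXT7), where this held for 41.2% of all genes. The share of members called is thus no larger than the background, and the result concerns HXT4 rather than the family.

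**Figure D1:**
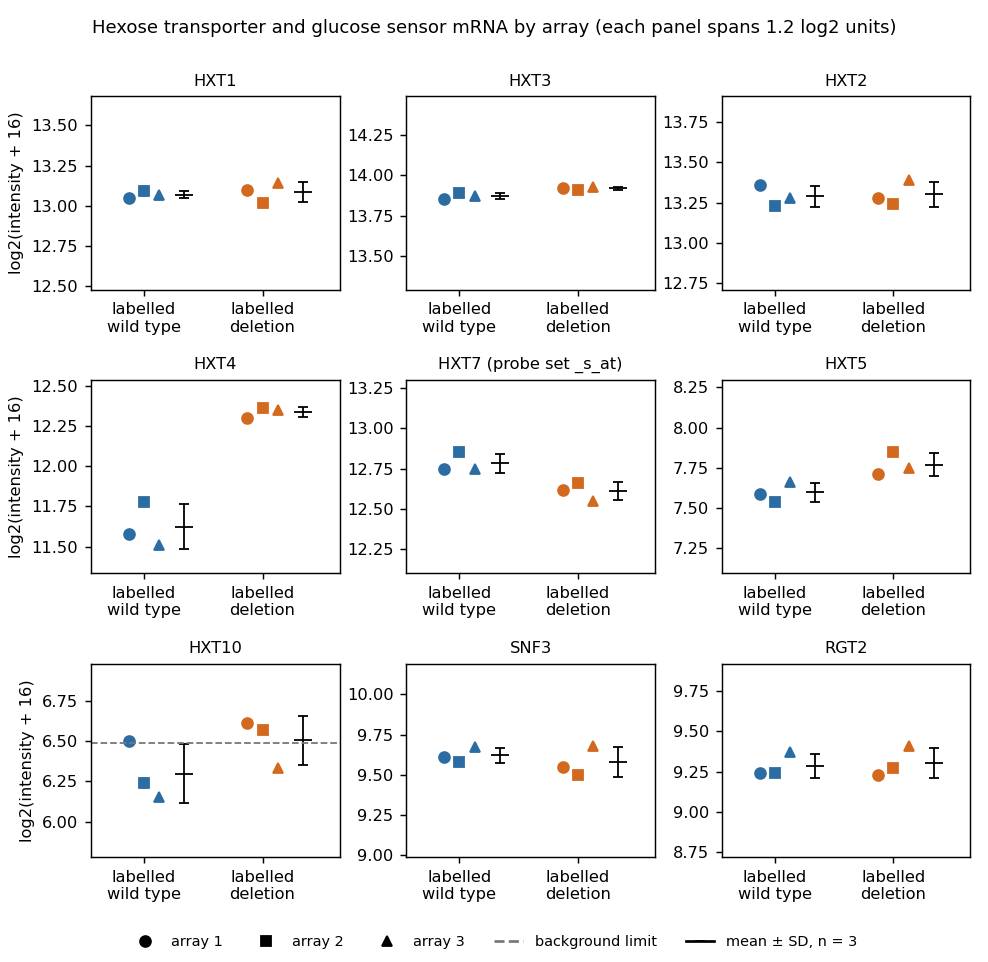
Level of each measured member on the log2(intensity + 16) scale in every array, with the wild-type-labelled arrays in blue and the deletion-labelled ones in orange. Marker shapes give the array number, the black bars give mean ± SD of 3 arrays, and every panel spans the same range of 1.2 log2 units. HXT4 is separated by far more than its spread, HXT7 and HXT5 are separated narrowly, and HXT10 lies around the dashed background limit.

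HXT4 encodes a glucose transporter of intermediate to high affinity, which is known to be expressed at low glucose and repressed at high glucose. Its level was 11.58, 11.78 and 11.51 in the wild-type-labelled arrays and 12.30, 12.36 and 12.35 in the deletion-labelled arrays. The 3 deletion-labelled arrays lay close together and all stood above the highest wild-type-labelled array. In the deposited intensities the means were 3192 ± 316 and 5152 ± 118 (SD, n = 3 each). The log2 difference was 0.72 ± 0.07 (SE, 95% interval 0.54 to 0.89, limma adjusted p = 5.3e-04), a rise of 1.64-fold with an interval of 1.46 to 1.85. An exact two-sided permutation test over the arrays gave p = 0.1, the smallest that 3 arrays against 3 allow. Of the 630 genes called higher, 52 rose by more than HXT4. The difference stayed between 0.59 and 0.79 and past the threshold under all 18 alternative settings, with adjusted p from 7.8e-07 to 0.012. The highest of these p-values came without both arrays numbered 3, where the difference was 0.65. The lowest came with median centring, where the difference was smallest, at 0.59. That setting also gave far lower limma adjusted p-values elsewhere (3.7e-29 for GRR1), and its p-values are not read as stronger evidence.

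HXT1 and HXT3, the low-affinity transporters known to carry most uptake at high glucose, were not called. HXT1 stood at 13.05, 13.09 and 13.07 in the wild-type-labelled arrays and at 13.10, 13.02 and 13.14 in the deletion-labelled arrays, with overlapping groups. Its difference was 0.01 ± 0.05 (95% interval -0.10 to 0.12, adjusted p = 0.85). HXT3 stood at 13.85, 13.89 and 13.87 against 13.92, 13.91 and 13.93. These groups did not overlap, but they were only 0.05 ± 0.04 apart (95% interval -0.04 to 0.14, adjusted p = 0.41). With median centring of the arrays the difference was -0.07, but that setting put the median of all genes at -0.09. Relative to the median of all genes HXT3 was 0.02 there and 0.01 in the fit reported here. The intervals reach at most 1.10-fold in either direction for both genes. Both were bright, at 95.9- and 167-fold the background limit in the wild-type-labelled arrays, and how far the arrays compress differences at such levels was not measured.

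HXT2 encodes a transporter of high affinity that is known to be induced by low glucose. Its level was 13.36, 13.23 and 13.28 in the wild-type-labelled arrays and 13.28, 13.24 and 13.39 in the deletion-labelled arrays. The groups overlapped fully, and the difference was 0.01 ± 0.06 (95% interval -0.13 to 0.15, adjusted p = 0.90). HXT2 thus moved by less than the spread between arrays, while HXT4, which is likewise known to be repressed at high glucose, rose. HXT2 was also bright, at 112-fold the background limit in the wild-type-labelled arrays, where HXT4 stood at 35.2-fold. How far the arrays compress differences at such levels was not measured, which limits this contrast.

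The probe set of HXT7, which may also read HXT6, stands for high-affinity transporters whose genes glucose is known to repress. It read 12.75, 12.85 and 12.75 in the wild-type-labelled arrays and 12.62, 12.66 and 12.55 in the deletion-labelled arrays. All 3 deletion-labelled arrays were lower, by -0.17 ± 0.05 (95% interval -0.30 to -0.05), and the adjusted p of 0.052 missed the threshold. The deposited means were 7097 ± 245 and 6207 ± 175 (SD, n = 3 each). Under 7 of 18 alternative settings it passed, with adjusted p from 0.017 to 0.14 over all of them and a difference from -0.29 to -0.14. The setting therefore decides whether this probe set counts as lower. Under each of these settings its difference had the opposite sign to that of HXT4.

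HXT5 encodes a transporter of moderate affinity known from slow growth, starvation and stress rather than from glucose level, and HXT10 a transporter normally expressed at very low levels. HXT5 read 7.59, 7.54 and 7.66 in the wild-type-labelled arrays and 7.71, 7.85 and 7.75 in the deletion-labelled arrays. The groups were apart by a narrow gap, and the difference of 0.17 ± 0.05 (95% interval 0.04 to 0.30) did not pass (adjusted p = 0.067, and 0.053 to 0.35 over 18 alternative settings, 0 of which called it). The level was dim, 2.16-fold the background limit in the wild-type-labelled arrays, so the added 16 understates its change. With a pseudocount of 1 in place of 16 the difference was 0.18, and without quantile normalisation, with 16 added, it was 0.25. HXT10 read 6.50, 6.24 and 6.15 against 6.61, 6.57 and 6.33, with 3 of 6 arrays above the limit. Its mean in the wild-type-labelled arrays, 6.30, lay below the limit. That in the deletion-labelled arrays, 6.50, was 1.01-fold the limit. The groups overlapped, and the difference of 0.20 ± 0.11 (95% interval -0.06 to 0.47, adjusted p = 0.25) is not read as a rise of any size. Quantile normalisation over yeast probe sets alone turned its sign, at -0.03.

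The sensor genes did not differ beyond the spread between arrays. SNF3, which encodes the sensor of low glucose, stood at 9.61, 9.58 and 9.67 in the wild-type-labelled arrays and at 9.55, 9.50 and 9.68 in the deletion-labelled arrays, a difference of -0.04 ± 0.06 (95% interval -0.18 to 0.10, adjusted p = 0.65). RGT2, which encodes the sensor of high glucose, stood at 9.24, 9.24 and 9.37 against 9.23, 9.27 and 9.41, a difference of 0.02 ± 0.06 (95% interval -0.13 to 0.17, adjusted p = 0.84). The groups overlapped for each sensor. In each group the arrays numbered 3 were the highest for each sensor. Both were clearly measured, at 8.79- and 6.95-fold the background limit in the wild-type-labelled arrays.

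**Figure D2:**
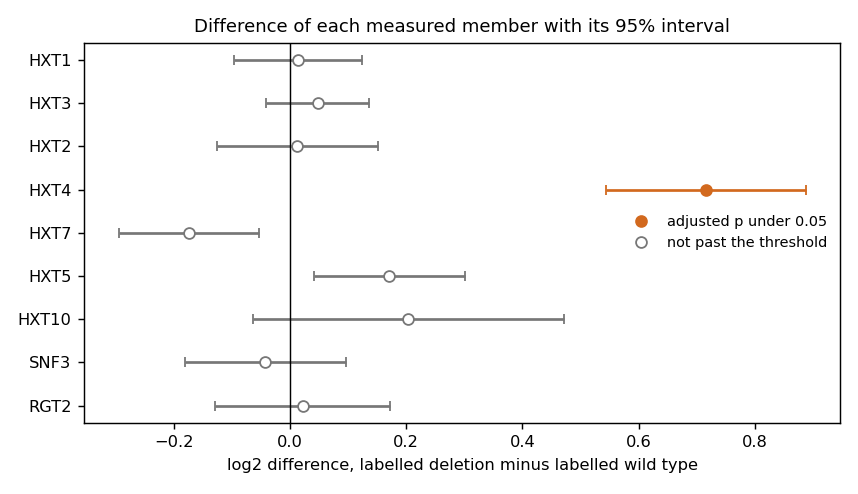
Log2 difference of each measured member (deletion-labelled arrays minus wild-type-labelled arrays) with its 95% interval from limma, before adjustment for multiple tests. The interval of HXT4 (0.54 to 0.89) lies above those of all other members. Those of HXT5 and HXT7 leave out 0, though their adjusted p-values of 0.067 and 0.052 missed the threshold.

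The members also differ in where they lie. In the R64 gene table HXT4, HXT1 and HXT5 form a cluster on chromosome VIII, with 1 gene (AHT1) between HXT4 and HXT1 and 0 between HXT1 and HXT5. HXT3, HXT6 and HXT7 form a second cluster on chromosome IV, the chromosome that also holds SNF3 and RGT2. HXT2 lies on chromosome XIII and HXT10 on chromosome VI. Within the chromosome VIII cluster HXT4 rose and HXT1 and HXT5 were not called.

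As a description, the log2 ratio of HXT4 to its neighbour HXT1 was also taken within each array, after the values were seen. Only its change between groups is read, since the brightness of 2 probe sets cannot be compared. It was -1.47, -1.31 and -1.55 in the wild-type-labelled arrays and -0.79, -0.66 and -0.78 in the deletion-labelled arrays. The ratio to the HXT7 probe set went from -1.16 ± 0.08 to -0.27 ± 0.07 (SD, n = 3 each). HXT4 was taken because it was the called member, so these ratios restate its rise and are no test that it differed from its relatives.

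The genes outside the transporter family whose levels followed HXT4 most closely over the 6 arrays were MHF1, a gene of the kinetochore and of DNA repair (Pearson r = 0.997), the sterol desaturase gene ERG3 (r = 0.997) and the lysine synthesis gene LYS20 (r = 0.995). They rose by 0.37 ± 0.05, 0.25 ± 0.04 and 0.20 ± 0.04 (adjusted p = 0.0029, 0.0072 and 0.012). With 3 arrays in each of 2 groups, such an r mostly records that the groups differ, and it is given as a description over 6 arrays.

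The remaining family members, HXT8 to HXT17 other than HXT10, and the galactose transporter gene GAL2 were mostly not measurable. Of 10 listed, 8 had a probe set and 2 of these had both group means above the limit, HXT9 and GAL2. None of the 8 was called in either direction, and 0 passed without adjustment. With median centring 1 was called higher, but which of the 8 it was is not given here, and it may lie below the limit. HXT9, on chromosome X, was measured by a pair of probe sets that disagreed. The brighter, with the suffix _s_at, differed by -0.04 ± 0.09. The other differed by -0.39 ± 0.08 and was called in the fit of all probe sets (adjusted p = 0.014). HXT9 and HXT11, on chromosome XV, are known to be close copies. Whether the brighter probe set reads both was not tested.

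The pathway upstream of the HXT genes was examined through 9 genes of the Rgt1 branch. Of these 1 fell and 0 rose (0 rose without adjustment), with a median difference of 0.02, where 21.7% of all genes changed and their median was 0.03. The gene that fell was GRR1, which encodes the F-box subunit that recognises Mth1 and Std1. It stood at 11.99, 11.97 and 12.04 in the wild-type-labelled arrays and at 10.87, 10.81 and 10.92 in the deletion-labelled arrays. This was a fall of 2.19-fold (difference -1.13 ± 0.05, adjusted p = 3.4e-05) with no overlap. GRR1 lies on chromosome X, where 295 of 316 genes fell, and 12 of those 316 fell by more than GRR1. The part of the chromosome-wide difference in the fall of GRR1 was not tested. The corepressor genes MTH1 (-0.09 ± 0.07, adjusted p = 0.41) and STD1 (0.04 ± 0.06, adjusted p = 0.70) and the repressor gene RGT1 (0.10 ± 0.05, adjusted p = 0.22) were not called. Grr1 acts on the Mth1 and Std1 proteins, which the arrays do not measure.

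Of 15 genes of the Snf1 and Mig1 branch 1 rose, 2 fell and 12 were not called, with a median difference of 0.05. Over all genes 11.6% rose and 10.2% fell, and 295 of the 554 falls were on chromosome X, where no gene of this branch lies. With so few genes, the share called is no result about the branch. TOS3, which encodes one of the kinases that activate Snf1, fell by 0.67 on the log2 scale (SE 0.09, adjusted p = 0.0017), from levels between 9.94 and 10.19 to levels of 9.33, 9.29 and 9.49. The related kinase genes SAK1 and ELM1 were not called, at 0.16 ± 0.08 and 0.08 ± 0.06. MIG2, a repressor gene that is itself induced by glucose, read 11.30, 11.21 and 11.38 against 10.97, 10.82 and 11.10 and fell by 0.34 (SE 0.08, adjusted p = 0.029). Its relative MIG3 read 9.12, 8.95 and 9.23 against 9.39, 9.40 and 9.74 and rose by 0.41 (SE 0.11, adjusted p = 0.046). MIG1 differed by 0.09 ± 0.08 and SNF1 by 0.08 ± 0.04, and neither was called. The call of MIG3 was lost when any 1 of the 6 arrays was left out (adjusted p up to 0.12), and that of MIG2 without wild_type replicate 1 or 3 or without ypr045c_deletion replicate 1 or 2 (up to 0.086).

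Of the 4 genes of hexose phosphorylation 1 rose and 0 fell (0 fell without adjustment), with a median difference near 0. With 21.7% of all genes called, 1 of 4 says nothing about the group. EMI2, a close relative of the glucokinase gene GLK1, stood at 10.96, 11.00 and 10.86 in the wild-type-labelled arrays and at 11.34, 11.52 and 11.54 in the deletion-labelled arrays. It rose 1.44-fold (0.53 ± 0.07, adjusted p = 0.0017). The main hexokinase gene HXK2 differed by 0.03 ± 0.04, HXK1 by -0.12 ± 0.06 and GLK1 by -0.04 ± 0.06, and these 3 were not called.

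Glucose is also sensed through the receptor Gpr1 and through Ras, which raise cAMP and activate protein kinase A. Of 13 measured genes of that branch 3 rose, 2 fell and 8 were not called, with a median difference of 0.04. The shares over all genes were 11.6% higher and 10.2% lower, and with so few genes nothing particular to the branch is read from its count. RAS2 stood at 11.82, 11.93 and 11.90 against 12.29, 12.30 and 12.30 and rose 1.33-fold (0.41 ± 0.04, adjusted p = 6.8e-04). GPA2, which encodes the G protein partner of Gpr1, rose 1.41-fold (0.49 ± 0.08, adjusted p = 0.0068). PDE1, which encodes a cAMP phosphodiesterase, fell 1.27-fold (-0.34 ± 0.05, adjusted p = 0.0021). The adenylate cyclase gene CYR1 fell 1.95-fold (-0.96 ± 0.06, adjusted p = 4.5e-05), and like GRR1 it lies on chromosome X, where 55 of 316 genes fell by more. The receptor gene GPR1, named after its values were seen, rose by 0.24 ± 0.06 (adjusted p = 0.033) but passed under only 10 of 18 alternative settings (adjusted p up to 0.61). It was lost without wild_type replicate 1, 2 or 3 or without ypr045c_deletion replicate 2 or 3 (adjusted p = 0.068 to 0.11).

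**Figure D3:**
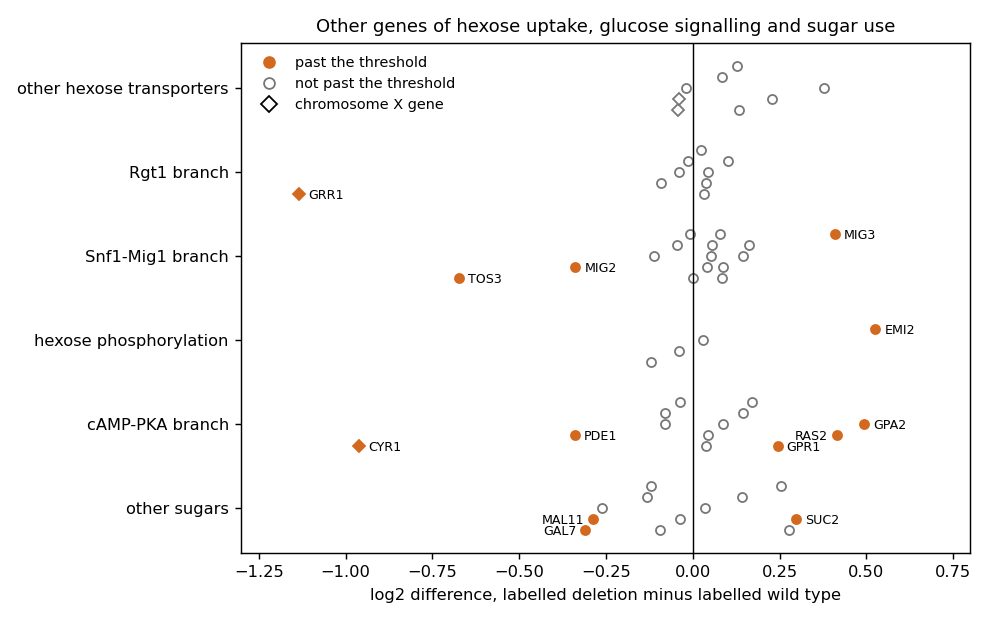
Log2 difference (deletion-labelled arrays minus wild-type-labelled arrays) of every measured gene of the other hexose transporters, the Rgt1, Snf1-Mig1 and cAMP branches of glucose signalling, hexose phosphorylation and the use of other sugars. Filled symbols passed an adjusted p of 0.05 and diamonds mark chromosome X genes. GRR1 (-1.13) and CYR1 (-0.96), both on chromosome X, fell furthest, and EMI2 (0.53) and GPA2 (0.49) rose most.

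Genes for the use of other sugars are known to be repressed in glucose medium, partly through the same Mig1 route as HXT4. Of 12 measured, 1 rose, 2 fell and 9 were not called, with a median difference of -0.07. Over all genes 21.7% were called, including 295 falls on chromosome X, which holds no gene of this list. With so few genes, the share is not read as a result about the list. The invertase gene SUC2 read 10.69, 10.37 and 10.44 in the wild-type-labelled arrays and 10.79, 10.84 and 10.75 in the deletion-labelled arrays. It rose by 0.30 ± 0.08 at an adjusted p of 0.0497, and under only 6 of 18 alternative settings did it pass. Leaving out any 1 array other than wild_type replicate 1 lost the call (adjusted p = 0.087 to 0.13). The maltose transporter gene MAL11 fell by 0.29 on the log2 scale (SE 0.07, adjusted p = 0.027) and the galactose gene GAL7 by 0.31 (SE 0.08, adjusted p = 0.035). They passed under 12 and 10 of 18 settings. MAL11 was lost without wild_type replicate 1, 2 or 3 or ypr045c_deletion replicate 2 (adjusted p up to 0.080), and GAL7 without replicate 1 or 3 of either group (up to 0.096). GAL7 stood at only 1.88-fold the background limit in the wild-type-labelled arrays. No direction common to this list was found.

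**Figure D4:**
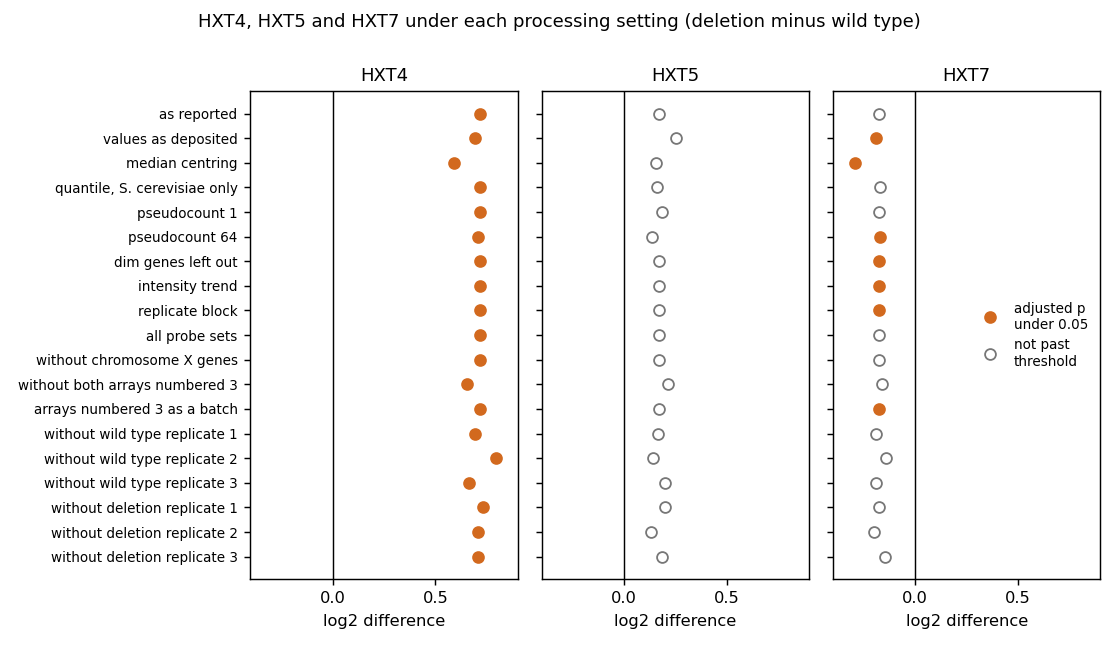
Log2 difference of HXT4, HXT5 and HXT7 (deletion-labelled arrays minus wild-type-labelled arrays) as reported and under each of 18 alternative settings, with filled points where the adjusted p was under 0.05. HXT4 stays filled throughout between 0.59 and 0.79, HXT5 is unfilled throughout, and HXT7 is filled in 7 settings.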

How the data were processed

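Total RNA was labelled as biotinylated cRNA by the Affymetrix one-cycle protocol, per the labels' protocols. The authors deposited 1 linear intensity per probe set and array, for 10928 probe sets with 30 missing values, 0 of them in members. Their summarisation and scaling of probe signals are not given in the sources used here. Gene names came from the platform annotation and were brought up to date by matching gene identifiers with the R64 gene table. For 47 genes with several probe sets the brightest was used. Since array log2 medians differed by 0.26, all probe sets were quantile normalised, and log2(intensity + 16) was fitted in limma 3.58.1 (lmFit, eBayes; R 4.3.3) with group as the only term and Benjamini-Hochberg adjustment over 5449 genes. The script was tested on simulated data.

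Summed intensity was 17790552 to 18431446 per array. The correlation of arrays across genes was 0.995 to 0.997 within and 0.981 to 0.985 between groups. The number of arrays limits the precision.

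Members, gene lists, named genes (all members, up to 4 called genes of each list by smallest p, and the 3 genes most like a called member) and alternatives were chosen with earlier results of these data known. MTH1, STD1, RGT1, SAK1, ELM1, MIG1, SNF1 and the uncalled hexokinase genes are named outside this rule, after their values were seen. A planned motif search was not run, since no promoter sequence was used here. Listed genes without a probe set under their own name were not analysed here. The alternatives were other normalisations and pseudocounts, a filter on dim genes, an intensity trend, a replicate block, all probe sets, chromosome X genes left out, and arrays left out or set as a batch.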

Additional observations from a re-analysis of the deposited data

How the results depend on the processing

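HXT4 kept its direction and its call under all 18 alternatives, and HXT5 and SNF3 kept their direction and stayed uncalled. The HXT7 probe set was called lower, making 1 member lower in place of 0, with the values as deposited (-0.1926), median centring (-0.2947), a pseudocount of 64 (-0.1732), and at -0.1745 with dim genes left out, an intensity trend, the arrays numbered 3 as a batch and the replicate block (adjusted p = 0.037). The array numbers 1 and 2 did not mark the arrays that deviated most alike, and the titles do not state a pairing. The deviations within a group cancel out, so their correlations depend on one another and serve as a description. Deviations from the group means correlated at -0.151, -0.026 and 0.605 for numbers 1, 2 and 3, and 2 of 3 numbers correlated better with another number. Wild-type-labelled array 1 correlated with deletion-labelled array 2 at 0.469, and wild-type-labelled array 2 with deletion-labelled array 1 at 0.482. The replicate block by number does not match these pairs, and a block by them was not tested. The block left HXT4 called (0.72, adjusted p = 0.0019).

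Signs of uncalled members turned. With the values as deposited HXT1 was -0.0268 and HXT2 -0.0061. With median centring HXT1 was -0.1289, HXT2 -0.1082, HXT3 -0.0711 and RGT2 -0.0978. That setting moved the median of all genes by -0.12, and relative to it HXT1 was -0.04, HXT3 0.02, HXT4 0.68 and HXT7 -0.20. Without both arrays numbered 3 HXT1 was -0.0136 and HXT2 -0.0373. HXT10 was -0.0303 when quantiles were equalised over S. cerevisiae probe sets only, and filtering dim genes left it out. Leaving out 1 array gave -0.0124 to 0.0477 for HXT1, -0.0325 to 0.0467 for HXT2 and -0.0298 to 0.064 for RGT2, with the lowest value of each without ypr045c_deletion replicate 3. The cause of these changes was not tested.

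Genes called higher numbered 630, but 241 with median centring, 349 without both arrays numbered 3 and 374 to 485 with 1 array left out (390 without ypr045c_deletion replicate 1 and 374 without replicate 2 of that group). Genes called lower numbered 554, and 225 without chromosome X genes, where fewer genes were tested. Of all calls 53.2% were higher, against 43% with the values as deposited, 23.8% with median centring, 70.4% without chromosome X genes and 42.5% without both arrays numbered 3. Counts in the pathway lists ranged from 0 to 1 higher and 1 to 3 lower for Snf1-Mig1, 0 to 1 lower for Rgt1, 2 to 4 higher and 1 to 2 lower for cAMP, and 0 to 2 higher and 0 to 3 lower for other sugars. Brightness near or below the limit leaves the changes of HXT10 and most of HXT8 to HXT17 unresolved. HXT10 still counts among the 9 measured members because it has a probe set, and 8 members had both group means above the limit.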
